A study of Mus musculus with 8 samples.

Results

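The 5 RNA-sequencing libraries of Smad2/3 cKO uterine epithelium were placed in order of a proliferation score and described along it. They are 5 of the 8 libraries of the study. The members were chosen by genotype label, and the score of a library was the mean log2(FPKM + 1) of Mki67, Top2a, Ccnb1, Cdk1, Birc5 and Ube2c, where FPKM counts fragments relative to the length of the transcript and the depth of sequencing. The values of these 6 genes chose the order, so the order, the score and every change along it are given as a description with no test.

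The cKO mice carried floxed alleles of both genes and a Cre knock-in at the progesterone receptor locus (Smad2flox/flox;Smad3flox/flox;Pgr-cre). SMAD2 and SMAD3 are the transcription factors that carry TGF-beta and activin signals to the nucleus. In Smad2 the loxP sites surround exons 9 and 10, and in Smad3 exons 2 and 3. All mice were on a mixed C57BL/6/129S6/SvEv background. Pgr-cre is active in other reproductive tissues and the pituitary as well as in the uterus. The sources used here do not give the alleles of the 3 control libraries, the age or cycle stage of the mice, or how epithelium was separated. Total RNA was made into cDNA with both random and poly-dT primers. No label says whether libraries came from separate animals or pools, so the spread between them may be technical. By title number, cKO 1 and cKO 2 fall in a series that starts with 70, while cKO 3, cKO 4, cKO 5 and the 3 controls fall in one that starts with 78. The labels do not say what the title numbers stand for.

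A cell that divides first loads the MCM helicase and copies its DNA in S phase, then assembles a spindle and separates its chromosomes in mitosis. Genes for replication are switched on around the start of S phase by E2F factors, which bind sites such as TTTGGCGC. Genes for mitosis are held down in resting cells by the DREAM complex and switched on later by MYBL2 and FOXM1. The elements through which they do so are the cell cycle homology region (CHR, TTTGAA) and, close by, CCAAT boxes bound by NF-Y. In the uterine epithelium estrogen drives waves of division, and TGF-beta family signals are known to restrain epithelial growth.

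The promoters of 4 mitotic genes and 2 S phase genes are shown as examples of the letters that were counted, because lists of mitosis and replication genes took different steps between libraries, as described further on. Top2a, Cdk1 and Ube2c are score genes, and Rrm1 is a nucleotide supply gene, so of the 6 Plk1 and Mcm6 belong to the lists compared. Each is the 150 bases before the RefSeq start on the gene's own strand, from the GRCm38.p6 build. Matches to the searched letters, on either strand, are in capitals. The CHR was searched as TTTGAA and its variant as TTTAAA. The box bound by NF-Y was searched as CCAAT. The E2F site was searched as GGCGGGAA and its variant as TTTGGCGC. The TATA box was searched as TATAAA. Motifs may overlap, and a promoter counts once for each motif it holds. Top2a lies at chr11:99024190-99024339 (minus strand), Cdk1 at chr10:69352913-69353062 (minus), Ube2c at chr2:164769779-164769928 (plus), Plk1 at chr7:122159285-122159434 (plus), Mcm6 at chr1:128359706-128359855 (minus) and Rrm1 at chr7:102441545-102441694 (plus).
Top2a: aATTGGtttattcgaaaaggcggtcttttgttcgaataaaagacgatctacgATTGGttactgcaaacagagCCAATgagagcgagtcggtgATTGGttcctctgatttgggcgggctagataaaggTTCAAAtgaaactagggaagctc
Cdk1: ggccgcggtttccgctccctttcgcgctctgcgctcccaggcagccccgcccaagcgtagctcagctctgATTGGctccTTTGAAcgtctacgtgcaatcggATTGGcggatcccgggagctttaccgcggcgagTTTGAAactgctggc
Ube2c: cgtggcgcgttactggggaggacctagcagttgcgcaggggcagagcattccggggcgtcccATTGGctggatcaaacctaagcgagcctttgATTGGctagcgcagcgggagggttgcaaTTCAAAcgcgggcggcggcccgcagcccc
Plk1: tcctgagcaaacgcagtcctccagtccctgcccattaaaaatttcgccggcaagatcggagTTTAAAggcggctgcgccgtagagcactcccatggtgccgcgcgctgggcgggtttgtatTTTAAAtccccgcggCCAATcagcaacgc
Mcm6: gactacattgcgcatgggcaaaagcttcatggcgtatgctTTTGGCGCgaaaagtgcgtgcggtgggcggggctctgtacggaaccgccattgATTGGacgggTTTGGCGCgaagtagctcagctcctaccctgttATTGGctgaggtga
Rrm1: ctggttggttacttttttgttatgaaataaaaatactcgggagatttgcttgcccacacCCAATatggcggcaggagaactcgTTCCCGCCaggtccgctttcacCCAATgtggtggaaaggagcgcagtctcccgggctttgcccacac
In Top2a, Cdk1 and Ube2c the CHR match nearest the start begins 23, 15 and 29 bases before it, with CCAAT letters, forward or reversed (ATTGG), upstream. Plk1 holds the variant TTTAAA at 89 and at 29 bases before the start. It also counts as a CHR promoter further on. Its CHR letters are in the wider window counted there and not within the printed 150 bases. Mcm6 holds TTTGGCGC at 110 and at 47 bases before the start, and Rrm1 holds the E2F letters reversed at 67. A match is a run of letters in this window and not a measured binding site.

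The score put the libraries in the order cKO 3, cKO 4, cKO 5, cKO 1 and cKO 2, and values below follow that order unless a library is named. The scores were 4.83, 3.59, 2.85, 2.53 and 0.927 on the log2 scale. The highest exceeded the lowest by 3.90, which is 14.9-fold in FPKM + 1. The gaps between neighbours were 1.24, 0.737, 0.323 and 1.60, so cKO 5 and cKO 1 stood closest and cKO 1 and cKO 2 farthest apart. The 3 controls, measured the same way as background only, had scores of 0.937, 1.26 and 0.926, a mean of 1.04 ± 0.190 (SD, n = 3). The score of cKO 2 lay within the range of the controls, and the other 4 cKO libraries lay above it.

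**Figure D1:**
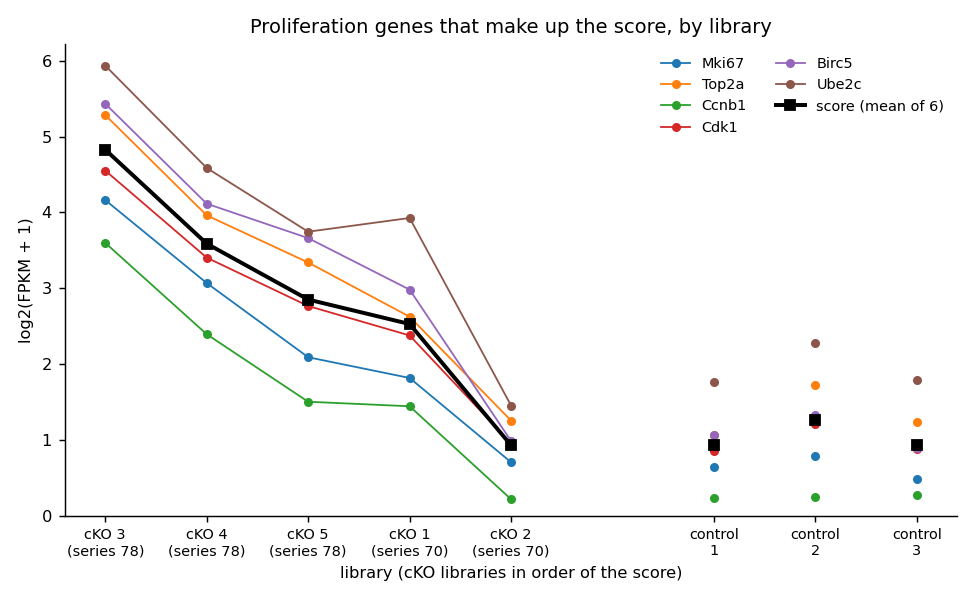
Levels of the 6 score genes (coloured dots) and their mean (black squares) as log2(FPKM + 1) in each library, with cKO libraries in order of the score and controls at the right. The mean falls from 4.83 in cKO 3 to 0.927 in cKO 2, and the controls sit between 0.926 and 1.26.

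Among the score genes, Top2a (topoisomerase II alpha, which untangles chromosomes) was at 38.0, 14.6, 9.12, 5.16 and 1.38 FPKM. Birc5, the survivin subunit of the chromosomal passenger complex, was at 42.2, 16.3, 11.6, 6.90 and 0.978 FPKM. Cdk1, the kinase that starts mitosis, was at 22.5, 9.58, 5.80, 4.19 and 0.938 FPKM. Each of the 3 was lower at every step, and in cKO 2 each lay within the range of the controls. Mki67, the proliferation marker Ki-67, was at 16.9, 7.38, 3.26, 2.52 and 0.629 FPKM. Ccnb1, cyclin B1, was at 11.1, 4.25, 1.83, 1.72 and 0.161 FPKM, and its authors' 95% intervals overlapped between cKO 5 (1.57 to 2.09) and cKO 1 (1.48 to 1.96). It missed the level filter used below, FPKM of 5 or more in at least 2 of the 5 libraries. Ube2c, the ubiquitin-conjugating enzyme of the anaphase-promoting complex, was the score gene out of order, at 60.2, 23.0, 12.4, 14.2 and 1.74 FPKM, with cKO 1 above cKO 5. The order of cKO 5 and cKO 1 was therefore the least separated of the 4 steps. In cKO 2, Mki67 also lay within the range of the controls. Ccnb1 and Ube2c lay below the controls there, which were at 0.177 to 0.207 FPKM for Ccnb1 and 2.40 to 3.83 FPKM for Ube2c.

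Estimated depth was 44.2, 52.9, 49.4, 55.2 and 52.1 M mapped fragments, so the library of highest score was the shallowest. Smad2 was at 4.28, 3.65, 3.36, 3.58 and 2.80 FPKM, below the 5.61 to 6.75 of the controls in every cKO library. Smad3 was at 31.5, 24.2, 20.3, 40.4 and 33.7 FPKM and overlapped the controls (26.5 to 33.6). These whole-gene values do not read the deleted exons on their own, and neither gene followed the order of the score. The epithelial identity list, 18 keratins and other epithelial genes, stayed between 7.44 and 7.76 in mean log2(FPKM + 1). Single members varied more, as with the keratin gene Krt19 at 1628, 1065, 1159, 2171 and 1363 FPKM for cKO 3, cKO 4, cKO 5, cKO 1 and cKO 2.

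Rises far outnumbered falls along the score. Of 24346 gene symbols, 7937 passed the level filter and had a Cufflinks status of OK in every cKO library. A gene was called when its 5 values followed the order of the score without a break and its FPKM + 1 differed at least 2-fold between cKO 3 and cKO 2. By that rule 81 genes rose with the score (1.02% of 7937) and 6 fell (0.0756%). Without the 2-fold limit, 356 genes were in full order upward and 32 downward. That split depended on scale, since it was 155 to 120 with median ratio scaling and 171 to 139 with quantile normalization. The calls became 63 and 15 with the first, and 62 and 18 with the second. The median slope over the 7937 genes was 0.05 log2 units of FPKM + 1 per unit of score. At the 2-fold limit, Cse1l (1.002 in log2) and Mtmr9 (1.02) lay just inside, and Ctps and Rad21 (0.98 each) just outside.

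**Figure D2:**
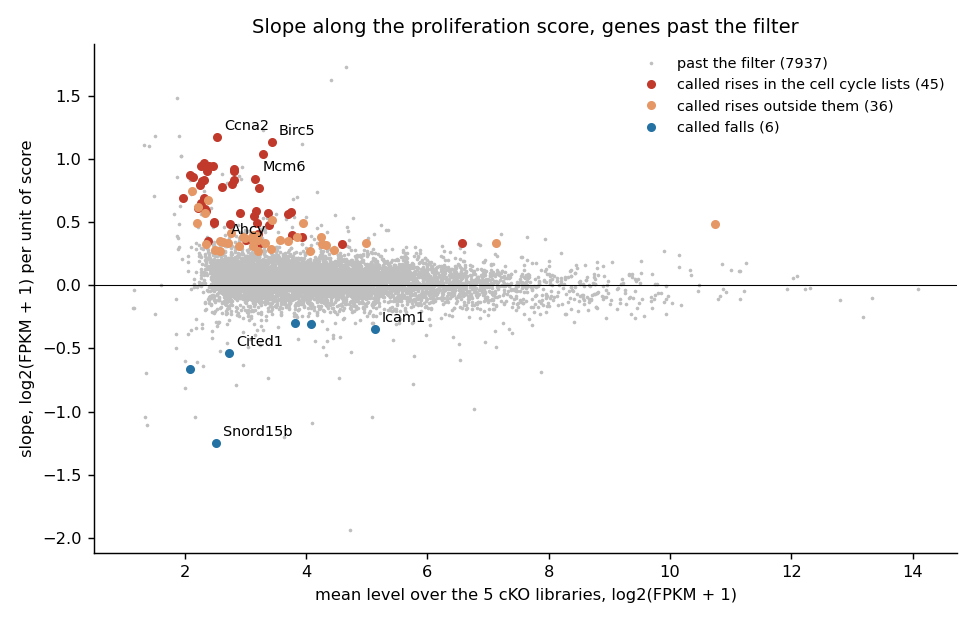
Slope of each of 7937 genes along the score (log2(FPKM + 1) per unit of score) against its mean level, with called genes coloured. The 45 called rises from the cell cycle lists include the steepest called slopes, up to 1.17 for Ccna2, and the 6 called falls lie between -0.30 and -1.25.

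Of the 81 rises, 45 belong to the 10 cell cycle lists, which hold 235 genes. The score genes are 1 of these lists, and 4 of the 45 are score genes that set the order, which leaves 41. The lists were chosen with earlier results of these data known. Because low genes pass the filter only through the libraries where they are high, the lists are counted below over every measured member, beside all 24332 symbols of status OK, of which 225 rose (0.925%) and 9 fell (0.037%).

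The steepest called rise was Ccna2, the cyclin of S phase and mitotic entry, at 22.9, 8.98, 5.01 and 3.44 FPKM and listed at 0 in cKO 2 and in the 3 controls. An exact 0 in these files can be a failed estimate, so no fold is given. The slope of 1.17 and the rank rest on that 0, and the next steepest was the score gene Birc5 at 1.13. Plk1, the mitotic kinase polo-like kinase 1, was at 20.0, 6.29, 3.24, 2.03 and 0.555 FPKM, 36.0-fold between the ends (slope 0.97 ± 0.10, SE, n = 5). Aurka, the centrosomal kinase Aurora A, was at 14.3, 6.07, 3.38, 2.58 and 0.654 FPKM. In these 3 genes every library differed from its neighbour in the direction of the score, with the 0 of Ccna2 taken as listed. Of the 20 G2/M cyclins and kinases, 12 were called rises and 0 falls, 11 passed the filter, and the median slope was 0.64. Those out of order included Ccnb2, Nek2, Cdca3 and Cks1b, and each of these was higher in cKO 1 than in cKO 5.

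In the kinetochore and checkpoint list 19 of 27 members were called rises, with a median slope of 0.59. Bub1b, the checkpoint kinase BUBR1, was at 15.9, 6.73, 3.31, 2.37 and 0.375 FPKM. Spc24 and Spc25, subunits of the NDC80 complex that grips microtubules, had slopes of 0.69 ± 0.07 and 0.65 ± 0.08 (SE, n = 5). Cdc20, the activator of the anaphase-promoting complex, was at 30.9 and 18.9 FPKM in cKO 3 and cKO 4 and listed at 0 in the other 3. In the spindle and cytokinesis list 23 of 29 were called rises, with a median slope of 0.73. Racgap1, which sets the cleavage plane with ECT2, was at 19.2, 7.49, 4.02, 2.77 and 0.600 FPKM. Tpx2, which activates Aurora A on the spindle, was at 16.7, 7.83, 3.55, 2.89 and 0.447 FPKM, and Prc1, which bundles the midzone, at 24.0, 8.81, 5.43, 3.98 and 1.15 FPKM. All 3 were lowest in cKO 2. Tuba1b, an alpha tubulin of the same list whose reads close paralogs may share, was at 174, 92.1, 85.8, 78.6 and 66.6 FPKM. Pttg1, the separase inhibitor securin, was at 40.5, 32.4, 10.1, 20.4 and 4.93 FPKM and so ran against the order at the third step.

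In the condensin and cohesin list all of Smc2, Smc4, Ncapd2, Ncapg, Ncapg2 and Ncaph, subunits of the 2 condensin complexes, were called rises, as with Ncaph at 12.5, 5.85, 4.13, 1.95 and 1.23 FPKM. The condensin II subunits Ncapd3 and Ncaph2 were not called. The cohesin members Smc1a, Smc3, Stag1, Stag2 and Rad21 gave no calls, and Rad21 was at 53.1, 36.6, 35.5, 30.8 and 26.4 FPKM, in order but under 2-fold. The list as a whole had 6 rises of 13.

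Of 40 replication origin and fork genes 22 were called rises and 0 falls, with a median slope of 0.43. Mcm6, a subunit of the replicative helicase, was at 28.7, 13.5, 8.61, 3.03 and 2.46 FPKM, 11.6-fold between the ends. Mcm5 was at 21.0, 9.42, 5.85, 2.53 and 1.78 FPKM. Uhrf1, which guides DNA methylation at forks, was at 22.8, 9.85, 6.77, 5.16 and 3.88 FPKM. In Mcm6 and Mcm5 cKO 1 lay closer to cKO 2 than to cKO 5, and in Uhrf1 it lay about midway. Of 15 nucleotide supply genes 7 were called rises. Rrm2, the regulated subunit of ribonucleotide reductase, was at 16.2, 8.62, 6.54, 1.78 and 1.40 FPKM, and Tk1, thymidine kinase, at 16.1, 5.96, 4.77, 1.31 and 0.921 FPKM. Both again held cKO 1 near cKO 2.

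Of 22 homologous recombination and checkpoint genes 12 were called rises, and 2 of the 22 passed the filter, H2afx (9.33 to 29.6 FPKM) and Topbp1 (5.23 to 17.2 FPKM). In the G1/S list 4 of 24 rose, Ccne1, E2f2, E2f7 and E2f8, all below the filter. Cdk4, which drives the passage through G1, had a slope of 0.04 ± 0.03 (SE, n = 5) at 101 to 120 FPKM. Ccnd1, cyclin D1, was at 85.6, 22.04, 28.0, 37.4 and 21.5 FPKM, high in cKO 3 and without order among the others. Among 7 CDK inhibitors only Cdkn2c, p18, was called, and Cdkn1a, p21, was at 47.8, 23.8, 53.3, 64.6 and 48.7 FPKM. The 37 genes of the replication-dependent histone list gave 0 calls, and their mean level ran 1.25, 0.87, 1.17, 1.01 and 0.88. Most of these transcripts lack a poly(A) tail, though cDNA was made with random as well as poly-dT primers. Of the 37, 4 passed the filter, and the reason for the 0 calls was not tested.

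**Figure D3:**
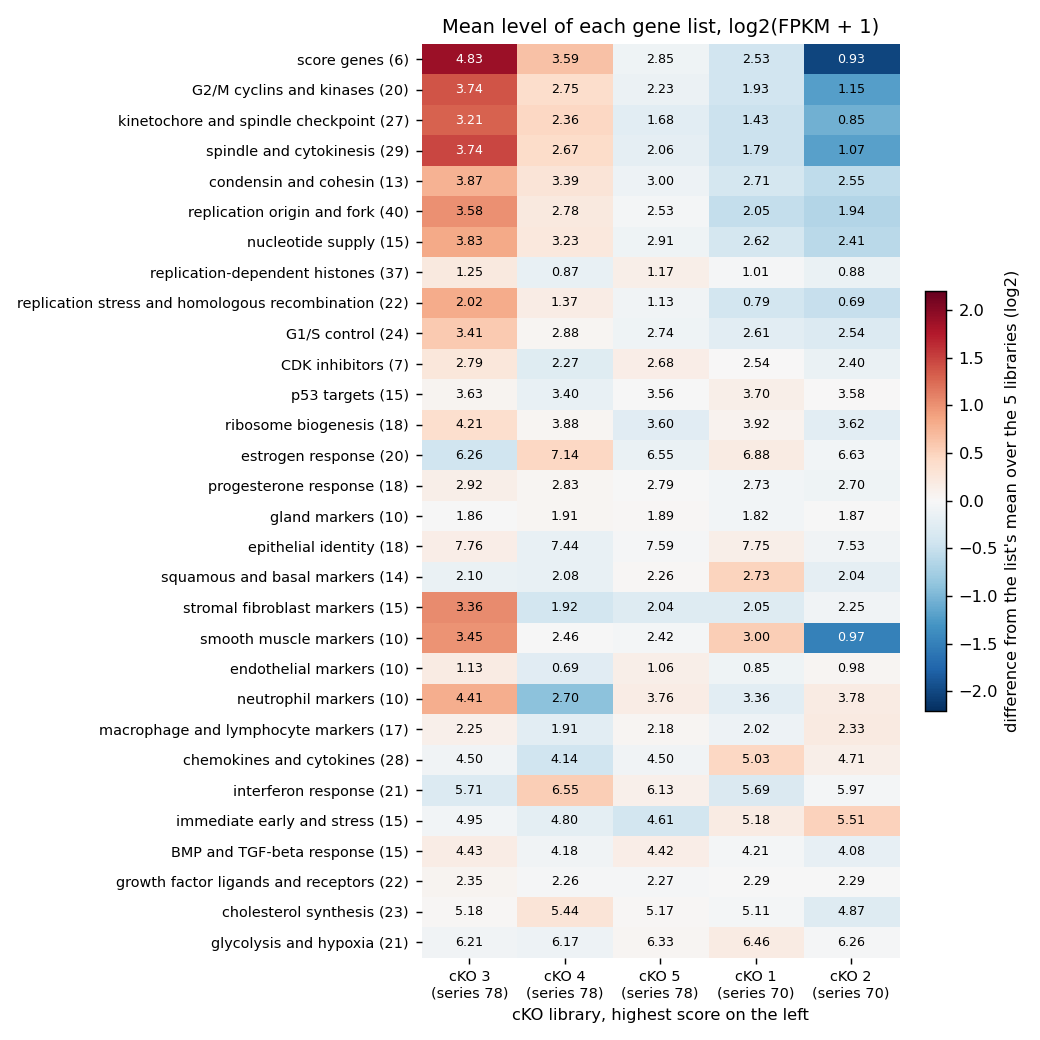
Mean log2(FPKM + 1) of each of 30 gene lists (rows, with the number of measured genes) in the 5 cKO libraries (columns, highest score at the left), coloured by the difference from the mean of the row. The mitosis and replication lists go from red to blue from left to right, while smooth muscle is lowest in cKO 2 (0.97) and stroma highest in cKO 3 (3.36).

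Outside the cell cycle lists 36 genes rose. Several work beside replication and chromatin: Asf1b, a histone chaperone, was at 11.53, 5.14, 3.63, 1.41 and 0.778 FPKM, Hells, a remodeller, at 13.3, 6.03, 4.20, 1.94 and 1.47 FPKM, and Ezh2, the Polycomb methyltransferase, at 14.3, 6.86, 6.59, 5.60 and 4.29 FPKM. Others serve nuclear pores and transport: Nup37, Nup93, Nup107, Kpna2 and Cse1l. These groupings were made after the values were seen. The most abundant called rise outside small RNAs and model genes was Smpdl3a, a phosphodiesterase of the sphingomyelinase family, at 219, 155, 141, 127 and 87.0 FPKM, with controls at 206 to 230. For Smpdl3a cKO 3 lay at the level of the controls and cKO 2 below it, the opposite placing to the score genes.

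Falling genes were few. Cited1, a transcriptional coactivator that responds to estrogen, was at 1.91, 4.24, 6.01, 9.26 and 10.9 FPKM, 5.68-fold higher in cKO 2 than in cKO 3 (slope -0.54 ± 0.10, SE, n = 5). It was at 17.3 to 29.7 FPKM in the controls, above every cKO library. Icam1, an adhesion molecule for leukocytes, was at 20.0, 25.5, 41.5, 43.8 and 49.2 FPKM, against 13.9 to 23.3 in the controls. Thus cKO 2 was nearest the controls for Cited1, while cKO 3 was nearest them for Icam1. Nrbp2 was at 11.3, 12.3, 13.3, 21.7 and 25.1 FPKM and Nat6 at 8.55, 11.0, 14.0, 14.2 and 20.1 FPKM. The largest step of Nrbp2 lay between cKO 5 and cKO 1, which is also the step between title series. The called rise Pon2, at 20.5, 19.9, 15.8, 8.28 and 7.69 FPKM, likewise changed most at that step. The other called falls were the small RNA Snord15b and the model gene 9130221H12Rik, both listed at 0 in cKO 3. Below the filter Nkg7, a granule protein of natural killer and cytotoxic T cells, was at 0.300, 0.5002, 0.771, 1.48 and 2.27 FPKM. It was the 1 called gene of 17 measured macrophage and lymphocyte markers, of which 11 had slopes below 0, with a median slope of -0.03. Over all genes past the filter, 68.3% of slopes were above 0, a share that depends on scale.

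Mitosis and replication took different steps between the libraries. The score that set the order is itself made mostly of mitotic genes. Its own gaps were 0.323 from cKO 5 to cKO 1 and 1.60 from cKO 1 to cKO 2. A closer match of mitosis genes to those gaps is thus partly built in. The 3 mitosis lists without the score genes hold 76 measured genes, of which 54 were called rises, and the replication list 40, of which 22 were. From cKO 5 to cKO 1 the median difference in log2(FPKM + 1) was 0.30 over the mitosis genes and 0.45 over the replication genes. From cKO 1 to cKO 2 it was 0.64 for mitosis and 0.11 for replication. In cKO 1, 18 of the 76 mitosis genes were at least 2-fold above cKO 2, and 0 of the 40 replication genes were, beside 0.625% of all symbols of status OK. In 11 of the 40 replication genes cKO 1 was below cKO 2, against 0 of 76 mitosis genes, while 16 mitosis genes were higher in cKO 1 than in cKO 5. The mean mitosis level was 3.55, 2.58, 1.97, 1.70 and 1.01, and the mean replication level 3.58, 2.78, 2.53, 2.05 and 1.94. For cKO 1, mitosis genes thus stood nearer to cKO 5, and replication genes nearer to cKO 2.

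**Figure D4:**
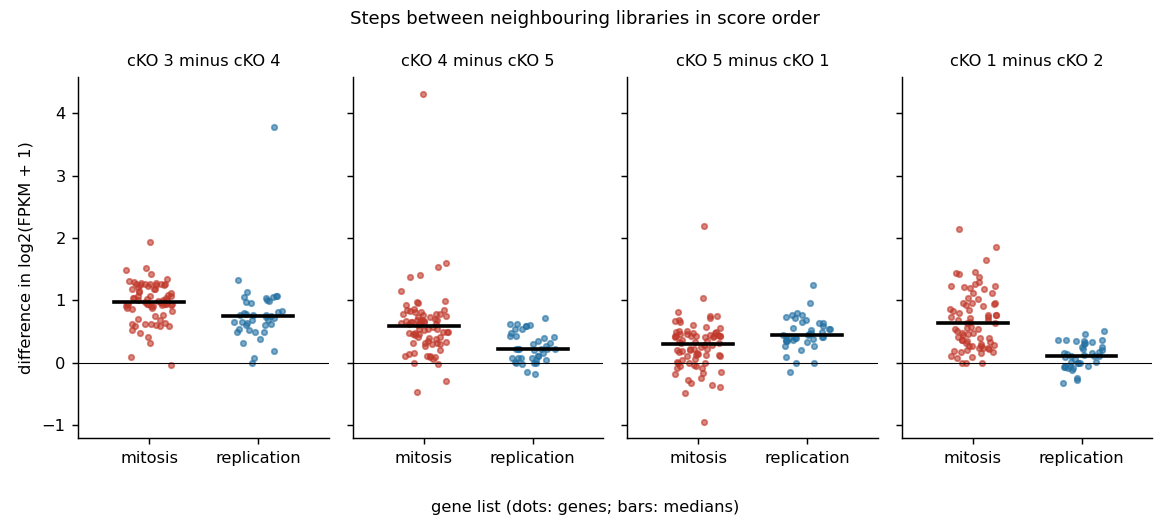
Difference in log2(FPKM + 1) between neighbouring libraries in score order for each of 76 mitosis genes (red) and 40 replication genes (blue), with bars at the medians. At the last step the medians are 0.64 and 0.11, and at the step before 0.30 and 0.45.

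The promoter letters differed between these groups. Of 59 mitosis genes with a RefSeq promoter (of 77 listed), 64.4% held CHR letters in the window from 250 bases before to 50 after the start. The share was 19.4% of 31 replication promoters, 11.0% of the 6102 promoters of genes past the filter and 17.9% of all 32851 promoters. CCAAT letters were in 69.5% of the mitosis promoters, 64.5% of the replication promoters, 38.4% of those past the filter and 37.4% of all promoters. The CHR variant TTTAAA was in 20.3% of the mitosis promoters and 13.2% of all. TATA letters were in 0% of the promoters of rises and 7.28% of those past the filter. Either E2F motif was in 5.08% of the mitosis promoters and 32.3% of the replication promoters, beside 5.21% of those past the filter and 2.68% of all. Of the 81 rises 63 had a promoter, and 39.7% of these held CHR and 15.9% an E2F motif. Of the 6 falls 3 had a promoter, and 0 of the 3 held CHR letters.

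The genes of the mitosis and replication lists were also split by those letters. The 42 with CHR and no E2F motif had a median difference of 0.31 between cKO 5 and cKO 1 and 0.61 between cKO 1 and cKO 2. The 10 with an E2F motif and no CHR had medians of 0.60 and 0.30. The 35 with neither had medians of 0.36 and 0.27. This split nearly repeats the lists. CHR letters were in 38 mitosis and 6 replication promoters, and an E2F motif in 3 and 10. Letters and list membership therefore cannot be told apart here. Among called rises other than score genes, the last step had a median of 0.64 over 19 genes with CHR alone, 0.32 over 7 with E2F alone and 0.32 over 30 with neither. Over genes past the filter without regard to lists it was 0.10 for 633 with CHR alone, 0.05 for 282 with E2F alone and 0.05 for 5146 with neither. Genes in these groups share libraries and are not replicates, so these medians carry no test.

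The score went with the title series. All 3 libraries of series 78 scored above both of series 70, with means of 3.76 ± 0.999 (SD, n = 3) and 1.73 ± 1.13 (SD, n = 2), a difference of 2.03. The closest pair across the series, cKO 5 and cKO 1, differed by 0.323, less than the SD within either series. An exact permutation test of 3 libraries against 2 cannot go below a two-sided p of 0.1, and the score was not tested. What the title series stands for and the score cannot be told apart in the values between series. Every series 78 library lay above both series 70 libraries in 37 of 39 replication genes above 0 and in 58 of 76 mitosis genes. Over the 7937 genes past the filter the share was 24.4%. The list counts include members below the filter, so they and this share rest on unlike sets. The share was taken on the deposited FPKM with no further scaling.

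With limma on all 7937 genes, 0 were higher (0%) and 0 lower (0%) in series 78 at an adjusted p below 0.05. At an unadjusted p below 0.05 limma gave 779 higher and 216 lower. The median difference over all genes was 0.10 in log2, and it was -0.02 with median ratio scaling, where the unadjusted counts were 353 and 461. Rrm2, Mcm6, Cdk1 and Dbp, given next, reached 5 FPKM in series 78 libraries and not in series 70, so they passed the filter through the group where they are high, and Cdk1 is a score gene. Rrm2 was 2.06 ± 0.36 (SE) higher in log2 in series 78, with a limma adjusted p of 0.328, higher in 3 of 3 libraries. Mcm6 was 2.102 ± 0.45 (SE) higher, with a limma adjusted p of 0.354. Cdk1 was 1.91 ± 0.62 (SE) higher, with a limma adjusted p of 0.376. None of these differences passed the adjustment. Clk1 and Cxcl1 went the other way, each also with a limma adjusted p of 0.328. Clk1 was at 78.6 and 81.7 FPKM in cKO 1 and cKO 2, and at 39.8, 42.5 and 38.6 in cKO 3, cKO 4 and cKO 5. Cxcl1 was at 198 and 127 FPKM in cKO 1 and cKO 2, and at 53.6, 48.5 and 64.6 in the same order. The smallest limma adjusted p, 0.298, was shared by Dbp, Mir1291 and Gm22291. Dbp, a clock-controlled transcription factor, was at 5.45, 10.5 and 7.95 FPKM in cKO 3, cKO 4 and cKO 5. It was listed at 0, which can be a failed estimate, in the other 5 libraries of the study. The small RNA Mir1291 and the model gene Gm22291 were lower in series 78, with log2 differences of -3.36 and -4.76. Both reached 5 FPKM in series 70 libraries and not in series 78, so they too passed the filter through the group where they are high. Mir1291 was listed at 0 in cKO 3, cKO 4 and cKO 5, which can again be a failed estimate. With cKO 2 or with cKO 4 left out, limma called 1 gene higher and 1 lower. Without cKO 2, series 70 is cKO 1 alone, and the spread comes from series 78 only.

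Changes within each title series were also counted, in the order that the score genes set. In series 78 alone, 136 genes were at least 2-fold up in score order from cKO 5 through cKO 4 to cKO 3 (1.71%) and 54 down (0.68%). In series 70, where 1 library is set against 1, 95 were at least 2-fold higher in cKO 1 than in cKO 2 (1.2%) and 75 lower (0.945%). Both held for 32 genes upward (0.403%) and 2 downward (0.0252%), and 13 of the 32 were also in order over all 5 libraries. Of the 32, 5 are score genes, 16 are in the mitosis lists and 0 in the replication list. Over every measured member it held for the 6 score genes, 18 of 76 mitosis genes and 0 of 40 replication genes. Over all 24332 symbols of status OK it held for 39 upward (0.16%) and 2 downward (0.00822%). Among them Anln, an actin-binding protein of the cleavage furrow, was at 13.0, 5.66, 2.01, 2.17 and 0.541 FPKM, and Cenpa, the centromeric histone, at 22.7, 11.7, 3.88, 5.82 and 1.49 FPKM. These 2 rise within each series and break order between them.

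Of the 32, 11 lie outside the cell cycle lists, and 3 of these are smooth muscle markers. Acta2, smooth muscle actin, was at 31.5, 15.3, 11.2, 23.3 and 3.05 FPKM, and Myl9, a myosin light chain, at 17.7, 7.43, 6.74, 12.04 and 0.419 FPKM. Emp1, an epithelial membrane protein, was at 49.9, 15.6, 8.69, 24.5 and 10.5 FPKM, and Tnfrsf12a, the receptor for TWEAK, at 39.1, 14.8, 11.3, 41.3 and 18.9 FPKM. In all 4 genes cKO 1 stood above cKO 4 and cKO 5, against the order of the score. Ccl21a and Hba-a1, a lymphoid chemokine and a globin, were the 2 downward genes. These genes were named after their values were seen.

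Markers of other cell types moved with part of the order. The mean level of 10 smooth muscle markers was 3.45, 2.46, 2.42, 3.00 and 0.97 in log2(FPKM + 1), with controls between 2.56 and 4.64. All 10 were lowest in cKO 2 and 8 were highest in cKO 3, and their summed FPKM was 142, 65.1, 65.5, 114 and 17.0. Their median slope was 0.55, but 0 of 10 followed the full order. Of 15 stromal fibroblast markers 13 were highest in cKO 3, and their mean level was 3.36, 1.92, 2.04, 2.05 and 2.25, with controls at 2.55 to 3.59. The collagen gene Col3a1 was at 43.6, 8.60, 8.58, 7.62 and 8.28 FPKM. The summed stromal FPKM was 323, 67.9, 80.1, 71.1 and 134. The stromal level of cKO 3 thus stood apart, and the other 4 libraries lay between 1.92 and 2.25 although their scores differed.

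Neutrophil markers followed no order, with mean levels of 4.41, 2.70, 3.76, 3.36 and 3.78, and 7 of 10 were lowest in cKO 4. S100a8, a calcium-binding protein abundant in neutrophils, was at 718, 68.3, 566, 272 and 352 FPKM. The neutrophil granule genes Camp and Ngp were listed at 0 in cKO 4 and lay below 1 FPKM in the other cKO libraries. Endothelial markers stayed low, at mean levels of 0.69 to 1.13, and none of 10 passed the filter. Macrophage and lymphocyte markers had mean levels of 1.91 to 2.33. The part of muscle and stroma in the score was not tested. In bulk RNA, more dividing cells and more transcripts per dividing cell cannot be told apart.

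**Figure D5:**
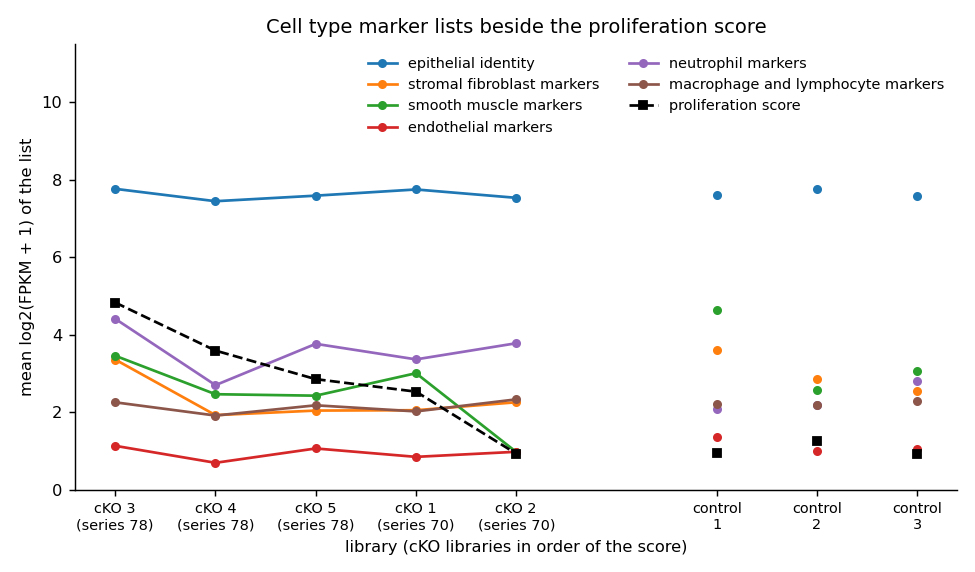
Mean log2(FPKM + 1) of 6 cell type marker lists (coloured lines) beside the proliferation score (black, dashed) in each cKO library, with controls at the right. Epithelial markers stay between 7.44 and 7.76 in cKO libraries, smooth muscle drops to 0.97 in cKO 2 and stroma is highest in cKO 3 at 3.36.

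The hormone and stress lists held 0 called genes, which lists of their size would often hold at the share of 0.925% over all symbols, so nothing is read from it. Of 20 estrogen response genes 0 were called in either direction, and Cited1 is not on that list. Lcn2, lipocalin 2, was at 8574, 7653, 13017, 13346 and 9931 FPKM. The p53 target, ribosome biogenesis, interferon, glycolysis and cholesterol lists likewise had 0 calls, with median slopes of 0.01, 0.14, 0.01, -0.01 and 0.10. The immediate early and stress list had 0 calls, but 14 of its 15 slopes were below 0, with a median of -0.17. Over the 7937 genes past the filter, 68.3% of slopes were above 0. The highest mean level of the list was in cKO 2 (5.51). Jun, an AP-1 subunit, was at 16.6, 17.0, 14.9, 28.1 and 35.9 FPKM. The progesterone response list was in order by its mean level, from 2.92 to 2.70, with 0 of 18 members called. Id1, a target of BMP signalling, was at 274, 285, 283, 302 and 222 FPKM in the cKO libraries, without order, and at 14.3 to 20.8 in the controls. Thus cKO 2, whose score lay among the controls, was far above them in Id1, as were the other 4.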

How the data were processed

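The data are 8 deposited tables of RefSeq transcripts, 5 of Smad2/3 cKO and 3 of control uterine epithelium. The deposited FPKM values carry a 95% interval and a status flag per transcript, per the file headers. The submitters' processing notes name the mm10 build, bcl2fastq 1.8.3, TopHat and Cufflinks. TopHat and Cufflinks versions, annotation and strand use are not given in these sources. Transcript FPKM was summed per gene symbol, and 14 symbols with a status other than OK in any cKO library were left out. No counts were used, and depth in mapped fragments was inferred from the FPKM intervals of single-transcript genes of at least 3000 bases with over 100 estimated fragments.

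Analyses used log2(FPKM + 1), which understates the change of low genes. Slopes are least-squares slopes along the score over 5 libraries, with their SE. Title series were compared with limma 3.58.1 in R 4.3.3, two-sided, with a trended variance and Benjamini-Hochberg adjustment over 7937 genes. Both procedures were run on simulated data with independent noise for each gene. Those data lack the shifts that genes of 1 library share, so they do not show how the procedures handle such shifts. Promoter sequences are from RefSeq on GRCm38.p6, and 1 start per gene was used, except for the share over all promoters. Members, gene lists, motifs and tests were chosen with earlier results of these data known. Genes were named by rule: the score genes, Smad2, Smad3 and Pgr (at 0.829 to 1.78 FPKM in the cKO libraries), the 12 largest called rises and falls by slope outside models and small RNAs, up to 4 called members of each list or the 2 most abundant where none was called, and the 4 called genes of highest mean FPKM each way, and the 6 of largest fold called between title series (0 were called). Genes named outside that rule, list members given as examples included, were chosen after their values were seen. Alternatives covered scaling, pseudocount, filters, the genes of the score, left-out libraries and the limma model.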

Additional observations from a re-analysis of the deposited data

Results flagged for a closer look

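The 5 cKO libraries were checked for a single library far from the other 4, in the score, in 30 list levels and in the named genes, 121 items in all. Chance alone sets a library apart in about 1 in 20 such groups. There were 2 items with a library apart from the rest. The mean level of the stromal fibroblast markers was 3.356 in cKO 3, against 1.922 to 2.254 in the other 4 libraries. Flt1, a receptor for VEGF found on endothelium, was at 2.974 FPKM in cKO 4, against 4.604 to 5.022 in the others. The score itself had no library set apart by this measure.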

How the results depend on the processing

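The order of the libraries was the same under each scaling, pseudocount and choice of score genes that was run. The range of scores was 1.68 when the score was taken from the 39 replication genes above 0, and 2.30 to 3.90 with 1 library left out. Rises numbered 159 in TPM, 207 with a filter of FPKM 1, 26 with FPKM 5 in all 5 libraries, 225 with no filter and 32 within each title series. With 1 library left out they numbered 67 to 146. Without cKO 3, 46 of the 81 were called, and without cKO 2, 65. Falls were few and depended on the setting: 15 with median ratio scaling, 10 in TPM, 18 with quantile normalization, 3 with FPKM 5 in all 5 libraries, 2 within each title series, and 16 to 33 with 1 library left out, where fewer libraries had to be in order. Lists in full order numbered 5 with FPKM 5 in all 5 libraries, where fewer members were averaged. Limma called 1 gene higher and 1 lower in series 78 in TPM, 1 and 10 with no filter, 1 and 2 with no variance trend, 1 lower with a filter of FPKM 1, and 0 to 1 each way with 1 library left out. With the score as a covariate limma called 0 and 0. The cause of these shifts was not tested unless stated. Of the 41 named genes that were called, 0 changed direction in any of 13 settings. Called genes are in full order, so most settings could not change their direction. Those are the left-out libraries, the pseudocount, the other score genes and title series as a term. Only the scalings could have changed it. Genes near 1 FPKM rest on few fragments, and 5 libraries limit every slope.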
